A study of Homo sapiens with 6 samples.

Results

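The genes described here encode the proteins of the mitochondrial ribosome. They were taken as the protein-coding genes of the RefSeq table of GRCh38.p14 whose symbol is MRPL or MRPS followed by a number. This gave 77 genes of 19974 protein-coding genes on chromosomes 1 to 22 and X, of which 49 are MRPL genes, for the large subunit, and 28 are MRPS genes, for the small subunit. Of these, 75 are at least 1 kb long (47 large and 28 small) and were set beside the 19451 protein-coding genes of that length. The others, MRPL41 and MRPL53, are described on their own at the end. The genes lie on 21 chromosomes, with at most 8 on any of them.

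The series is a set of ChIP-seq peak lists from HEK293T cells, a human embryonic kidney line, with no treatment and no genetic change named in the labels beyond the line itself. Chromatin from cells fixed for 10 min with 1% formaldehyde was immunoprecipitated with a pair of antibodies to the variant histone H2A.Z, of the makers CST and Abcam (lists H2AZ CST and H2AZ Abcam), to the variant H3.3, to acetylated lysine 16 of histone H4 (H4K16ac) and to dimethylated lysine 79 of histone H3 (H3K79me2). There was 1 library per antibody, and an input library for which no file was used here. No comparison between lists or gene groups therefore has a replicate spread or a p-value, and the exact Clopper-Pearson intervals at 95% given with shares cover counting error only. The lists hold 44634 to 76748 peaks. Of 4 chosen markers of the line, VIM, KRT8 and KRT18 carried H3K79me2 at an end and PAX2 did not, KRT8 and KRT18 with the same −log10 q of 17.2. Of 4 markers of other lineages, PTPRC and ALB carried none of the 5 lists, CD3E carried both H2AZ lists, and INS carried H2AZ Abcam, H3.3 and H4K16ac, so only H3K79me2 was missing from the ends of all 4. Over all coding genes of at least 1 kb, 55.4% carried it.

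The mitochondrial ribosome translates the few messages of the mitochondrial genome, which encode core subunits of the respiratory chain and of ATP synthase. Its proteins are all encoded in the nucleus, made in the cytosol and imported, and their genes are transcribed in nearly every cell type. H2A.Z sits in the nucleosomes that flank active promoters, H3.3 is the variant deposited outside replication, KAT8 is the main enzyme behind H4K16ac, and DOT1L places H3K79me2 over the first part of transcribed genes.

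The starts of these genes are where the peaks lay, so promoter sequences from RefSeq (GRCh38.p14, 250 bases before to 50 bases after the start) are shown for members that the results turn on. They stand for the strongest H2AZ CST peaks (MRPS12, MRPL19), for the highest H3K79me2 among members that lacked H3.3 (MRPS5, MRPL32) and among those that lacked H4K16ac (MRPL57, MRPS27). MRPL44 was added after its values were seen, because its listed start lies inside the annotated gene. Capitals mark matches to 3 cores of 7 bases. The NRF1 core is GCGCATG, which reads CATGCGC on the other strand. The ETS family core is CCGGAAG, or CTTCCGG on the other strand, and the YY1 core is AAGATGG, or CCATCTT on the other strand. None of these cores overlaps another in the sequences shown. The coordinates are chr19:38930694-38930993 for MRPS12, chr2:75646533-75646832 for MRPL19, chr7:42932126-42932425 for MRPL32, chr13:21176408-21176707 for MRPL57 and chr2:223957213-223957512 for MRPL44, all on the plus strand, and chr2:95121759-95122058 for MRPS5 and chr5:72320191-72320490 for MRPS27, on the minus strand.
MRPS12: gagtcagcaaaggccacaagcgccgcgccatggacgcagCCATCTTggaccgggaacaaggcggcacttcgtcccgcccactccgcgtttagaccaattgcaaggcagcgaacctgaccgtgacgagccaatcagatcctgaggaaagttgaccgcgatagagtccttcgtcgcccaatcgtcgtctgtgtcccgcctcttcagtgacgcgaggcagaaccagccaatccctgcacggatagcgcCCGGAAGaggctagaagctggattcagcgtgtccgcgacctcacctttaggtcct
MRPL19: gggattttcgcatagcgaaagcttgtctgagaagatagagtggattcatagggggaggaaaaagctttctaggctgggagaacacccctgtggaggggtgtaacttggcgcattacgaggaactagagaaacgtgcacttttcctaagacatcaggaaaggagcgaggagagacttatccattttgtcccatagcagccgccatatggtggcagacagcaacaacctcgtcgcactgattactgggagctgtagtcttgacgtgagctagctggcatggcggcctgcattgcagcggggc
MRPS5: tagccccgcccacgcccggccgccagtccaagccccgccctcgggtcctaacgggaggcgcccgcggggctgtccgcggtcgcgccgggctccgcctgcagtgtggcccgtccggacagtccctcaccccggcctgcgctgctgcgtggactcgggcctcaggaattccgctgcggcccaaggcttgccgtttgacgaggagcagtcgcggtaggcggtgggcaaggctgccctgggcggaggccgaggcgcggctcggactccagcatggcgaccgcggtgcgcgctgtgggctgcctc
MRPL32: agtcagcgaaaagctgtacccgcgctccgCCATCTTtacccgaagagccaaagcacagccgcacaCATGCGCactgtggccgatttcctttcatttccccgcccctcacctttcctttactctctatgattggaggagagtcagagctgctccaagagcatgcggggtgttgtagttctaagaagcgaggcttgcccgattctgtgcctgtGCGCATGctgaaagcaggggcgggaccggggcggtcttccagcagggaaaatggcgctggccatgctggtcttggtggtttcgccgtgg
MRPL57: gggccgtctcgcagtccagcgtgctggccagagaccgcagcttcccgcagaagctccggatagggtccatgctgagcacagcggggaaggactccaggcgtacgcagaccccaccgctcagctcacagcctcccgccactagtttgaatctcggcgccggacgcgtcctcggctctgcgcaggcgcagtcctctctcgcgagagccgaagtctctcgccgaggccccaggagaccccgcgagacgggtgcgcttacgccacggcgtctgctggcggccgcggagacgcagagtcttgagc
MRPS27: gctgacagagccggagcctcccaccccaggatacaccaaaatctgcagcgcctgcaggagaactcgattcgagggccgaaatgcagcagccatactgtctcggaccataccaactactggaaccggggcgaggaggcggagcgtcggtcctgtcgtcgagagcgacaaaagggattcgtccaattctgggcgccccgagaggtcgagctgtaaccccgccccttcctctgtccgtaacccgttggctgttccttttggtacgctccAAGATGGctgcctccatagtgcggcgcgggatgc
MRPL44: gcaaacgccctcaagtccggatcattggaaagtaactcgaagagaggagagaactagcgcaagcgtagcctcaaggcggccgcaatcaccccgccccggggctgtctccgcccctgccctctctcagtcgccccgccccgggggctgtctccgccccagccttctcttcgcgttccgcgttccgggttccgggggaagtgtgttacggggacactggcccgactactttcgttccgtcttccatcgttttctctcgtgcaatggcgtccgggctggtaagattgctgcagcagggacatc

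A match to the YY1 core was present in 23 of the 67 members of at least 1 kb with a RefSeq promoter (34.3%), against 6.36% of the 15413 protein-coding genes with such an entry. The ETS core was present in 28 of 67 (41.8%), against 14.5%, and the NRF1 core in 7 of 67 (10.4%), against 5.98%. Among the 8921 coding genes with H3K79me2 at an end, the shares were 7.96% for YY1, 21.3% for ETS and 8.32% for NRF1. The GC box GGGCGG (or CCGCCC) was in 59.7% of the members' windows, close to the 59.6% of all coding genes and below the 73.8% of those with H3K79me2. TATAAA (or TTTATA) was in 2.99%, against 8.88% and 4.65%. The MRPS12 window held an ETS and a YY1 core, MRPL32 held 2 NRF1 cores and a YY1 core, MRPS27 held a YY1 core, and no capital stands in the other windows. A match is a description of the letters only. The members' windows had a median GC content of 60.3% and a median of 24 CpG dinucleotides, beside 63.0% and 22 for all coding genes and 66.0% and 27 for those with H3K79me2.

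Peaks of H2A.Z and H3K79me2 were found at the ends of nearly all members, H3.3 peaks at fewer, and H4K16ac peaks at the fewest. A gene counted as carrying a list when a peak overlapped, by at least 1 bp, a window of 1 kb on either side of either gene end. H3K79me2 was at an end of 72 of 75 members (96.0%, interval 88.8 to 99.2), against 55.4% of all protein-coding genes of at least 1 kb. Each H2AZ list was at an end of 70 of 75 (93.3%, interval 85.1 to 97.8), against 70.7% in H2AZ CST and 71.1% in H2AZ Abcam, and 69 members carried both. H3.3 was at an end of 59 of 75 (78.7%, interval 67.7 to 87.3), against 64.5%. H4K16ac was at an end of 48 of 75 (64.0%, interval 52.1 to 74.8), against 55.0%, which lies inside that interval. The gap to the background was thus widest for H3K79me2 and narrowest for H4K16ac. With only the 10000 strongest peaks of each list the direction turned for both H3.3, at 25.3% of members against 28.3%, and H4K16ac, at 13.3% against 16.3%.

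**Figure D1:**
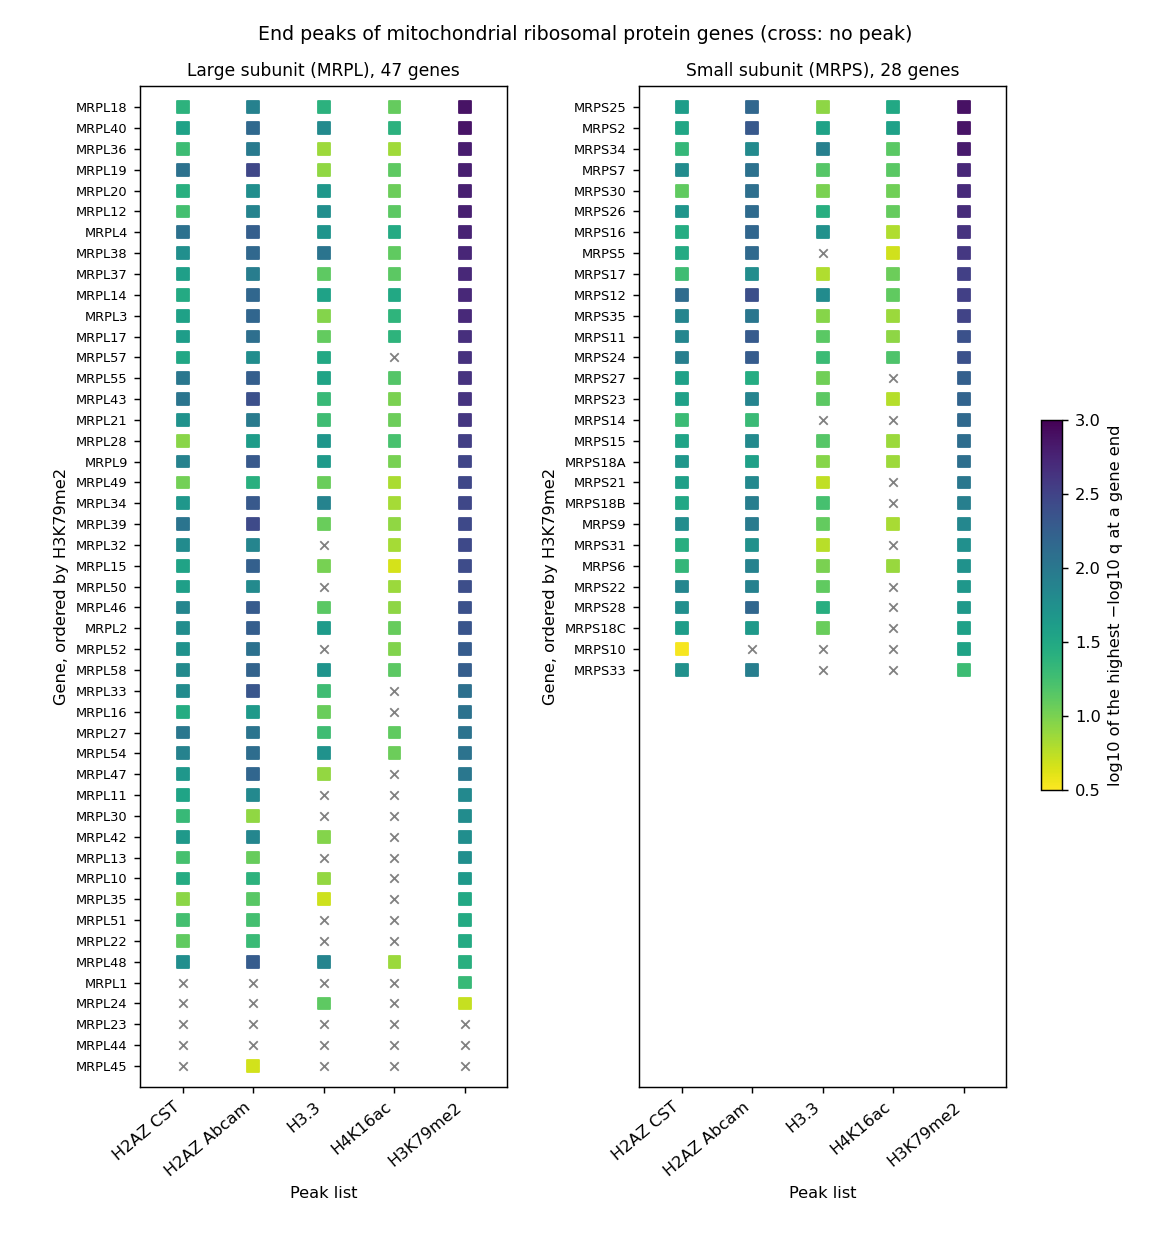
Each row is a member of at least 1 kb and each column a peak list, with the large subunit on the left and the small subunit on the right. The colour gives the log10 of the highest −log10 q among peaks within 1 kb of a gene end, a cross means no peak, and genes are ordered by H3K79me2. Crosses in the H3.3 and H4K16ac columns gather towards the bottom, and MRPL23 and MRPL44 have crosses in all 5 columns.

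The members are shorter than most genes, with a median length of 8667 bp (range 1240 to 111543) against 25553 bp for all. Among the 5305 coding genes with lengths in the members' middle range (4796 to 17620 bp), the shares with an end peak were 66.9% in H2AZ CST, 66.2% in H2AZ Abcam, 62.8% in H3.3, 57.2% in H4K16ac and 51.7% in H3K79me2. Genes of that length therefore carried end peaks no more often than all genes did, except for H4K16ac. Another annotated gene lay within 1 kb of an end in 52 of 75 members, so a window can hold a neighbour's peak. In the 23 members with no such neighbour, 20 carried H2AZ CST, 20 H2AZ Abcam and 20 H3K79me2 (87.0% each), 14 carried H3.3 (60.9%) and 13 carried H4K16ac (56.5%). The same shares over the 8005 coding genes with no such neighbour were 62.5%, 62.9%, 43.2%, 54.0% and 47.0%. Genes with a neighbour were thus not the only ones with H2A.Z and H3K79me2, while for H3.3 and H4K16ac the members without one lay within counting error of the background.

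All 5 lists were found at the ends of 44 members (58.7%), against 38.2% of all coding genes of at least 1 kb. All but H4K16ac were found at 14 members (18.7%), against 10.1%. Both H2AZ lists and H3K79me2, without H3.3 and H4K16ac, were found at 7 members, MRPL11, MRPL13, MRPL22, MRPL30, MRPL51, MRPS14 and MRPS33 (9.33%), against 3.36%. All but H3.3 were found at 4 members, MRPL32, MRPL50, MRPL52 and MRPS5 (5.33%), against 1.40%. MRPL23 and MRPL44 had no end peak in any list (2.67%), against 21.5%. Every small subunit gene carried at least H2AZ CST and H3K79me2.

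The strength of an end peak was read as the highest −log10 q at the gene's ends, a value of the authors' peak caller that grows with enrichment and with depth and is compared here only within a list. For H3K79me2 the members with a peak had a median of 240, against 172 over all coding genes with one, and for H2AZ CST 39.7 against 35.0. For H2AZ Abcam the order was the opposite, 94.7 against 105, and for H3.3 it was 14.5 against 23.6. H4K16ac gave 11.5 against 10.2. The members thus stood above the median gene in H3K79me2 and below it in H3.3.

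The strongest H3.3 end peak among the members was at MRPL38, a large subunit protein without a bacterial counterpart (chr17:75898644-75904884), where the −log10 q was 57.9 in H2AZ CST, 147 in H2AZ Abcam, 108 in H3.3, 12.9 in H4K16ac and 533 in H3K79me2. The next was at MRPS34, a mammalian small subunit protein (chr16:1771895-1773134), with 21.6, 65.1, 83.2, 13.8 and 653 in the same order. H4K16ac was strongest at MRPS2 (37.9), which had 33.5, 205, 36.5 and 734 for the 2 H2AZ lists, H3.3 and H3K79me2, and next at MRPS25 (31.9). MRPS25 also had the strongest H3K79me2 of the members, 769, with only 8.45 in H3.3. MRPL18 followed it in H3K79me2 with 761. The strongest H2AZ CST peaks were at MRPS12, whose protein sits at the decoding centre, and at MRPL19, at 134 and 117. MRPL19 and MRPL39 led H2AZ Abcam, at 294 and 273. At MRPL19 the H3.3 value was 8.26 and at MRPL39 it was 11.9, both under the members' median, so a strong H2A.Z peak did not go with a strong H3.3 peak at these genes. MRPS12 had 63.2 in H3.3 and 334 in H3K79me2. Within 1 kb of the start, however, H3.3 was 15.6 at MRPS12, 52.4 at MRPL38 and 31.9 at MRPS34. The strongest H3.3 peaks of these 3 genes were thus not at the start.

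The shares of large and small subunit genes with an end peak had overlapping intervals in each list, and the direction of the difference held under every setting tried for H2AZ CST and H3K79me2 but not for the other lists. For H2AZ CST the shares were 42 of 47 large subunit genes (89.4%, interval 76.9 to 96.5) and 28 of 28 small subunit genes (100%, interval 87.7 to 100). For H2AZ Abcam they were 43 of 47 (91.5%) and 27 of 28 (96.4%). For H3.3 they were 35 of 47 (74.5%, interval 59.7 to 86.1) and 24 of 28 (85.7%, interval 67.3 to 96.0). For H4K16ac they were 30 of 47 (63.8%) and 18 of 28 (64.3%), and for H3K79me2 44 of 47 (93.6%) and 28 of 28 (100%). The large minus small difference was -10.6 percentage points for H2AZ CST, -4.94 in H2AZ Abcam, -11.2 in H3.3, -0.456 in H4K16ac and -6.38 in H3K79me2. The sign turned for H4K16ac with a window of 2 kb (1.67), a −log10 q of at least 10 (10.4) and the 10000 strongest peaks (4.18), and with the last also for H2AZ Abcam (2.51) and H3.3 (17.6). All 5 lists were at the ends of 27 of 47 large and 17 of 28 small subunit genes (57.4% and 60.7%).

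The gap was smaller at the RefSeq start, known for 40 large and 27 small subunit genes. There H2AZ CST was found at 95.0% and 96.3%, H3.3 at 75.0% and 77.8%, and H3K79me2 at 97.5% and 100%. H2AZ Abcam and H4K16ac were instead more frequent in the large subunit, at 97.5% against 96.3% and at 67.5% against 63.0%. The symbols do not match the subunits in every case, because the products of MRPS18A and MRPS30 are part of the large subunit in the mammalian structure. Counting both genes there, an alternative chosen after the data were seen, gave 75.5% in H3.3 in the large and 84.6% in the small subunit, and for H4K16ac 65.3% and 61.5%, so the direction for H4K16ac turned. Of the 3 MRPS18 paralogs, MRPS18A carried all 5 lists, with a −log10 q of 7.33 in H4K16ac, whereas MRPS18B and MRPS18C carried all but H4K16ac. The H4K16ac peak of MRPS18A lay at the end opposite its start, and none of the 3 had H4K16ac at the start. The H2AZ CST and H3.3 peaks of MRPS18B also lay only at the end opposite its start, outside the gene. The H3K79me2 values of MRPS18A, MRPS18B and MRPS18C were 126, 85.3 and 37.6.

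**Figure D2:**
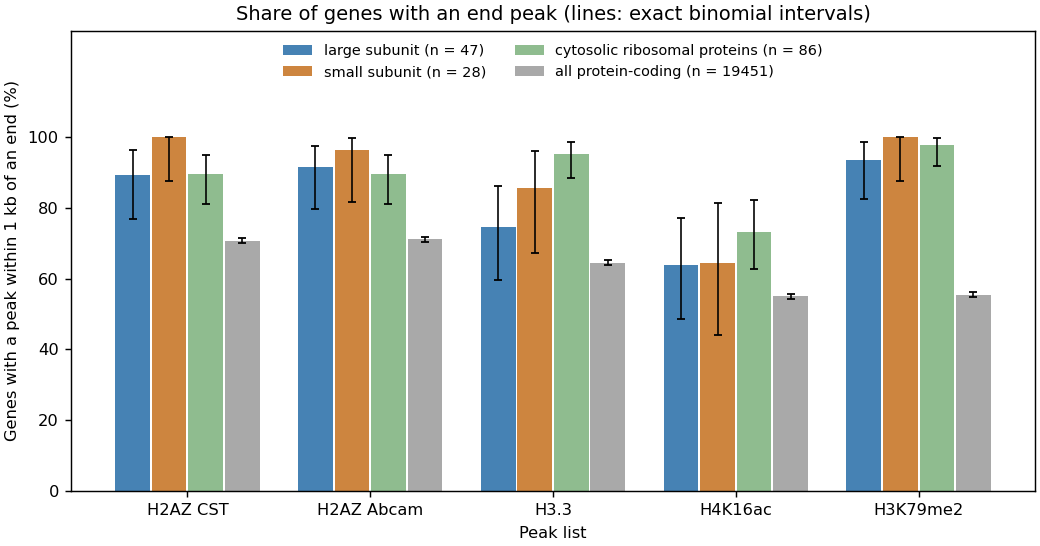
Bars give the percentage of genes of at least 1 kb with a peak within 1 kb of an end in each list, for large subunit, small subunit, cytosolic ribosomal protein and all protein-coding genes. The thin lines are 95% exact binomial intervals. The large and small subunit intervals overlap in every list, and H3K79me2 stands at 93.6% and 100% beside 55.4% for all coding genes.

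The cytosolic ribosomal protein genes served as the closest comparison. Of 86 such genes of at least 1 kb, 82 carried H3.3 at an end (95.3%, interval 88.5 to 98.7). That share was above the upper bound of 87.3% for the mitochondrial ribosomal protein genes. H3.3 was at both ends of 59.3% of the cytosolic genes and 21.3% of the members. The cytosolic genes were also shorter, with a median of 5046 bp against 8667 bp, and their share at the start alone was not computed. For H3K79me2 the shares with a peak at an end were close, 97.7% and 96.0%. For H4K16ac they were 73.3% and 64.0%, with overlapping intervals. The median −log10 q at an end was 21.6 in the cytosolic set and 14.5 in the members for H3.3, and 389 and 240 in H3K79me2. For H2AZ Abcam the order was the opposite, 28.9 and 94.7. Among genes that carried both H2AZ lists and H3K79me2, H3.3 was at 58 of 69 members (84.1%, interval 73.3 to 91.8), 73 of 74 cytosolic genes (98.6%) and 91.0% of 10332 coding genes.

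With the 67 members of at least 1 kb whose start RefSeq gives, peaks could be placed along the gene. Peaks lay at the start in 64 members for H2AZ CST (95.5%, against 70.9% of all such genes), 65 in H2AZ Abcam (97.0%, against 71.6%), 51 in H3.3 (76.1%, against 63.9%), 44 in H4K16ac (65.7%, against 51.9%) and 66 in H3K79me2 (98.5%, against 57.6%). At the far end of the 59 members of at least 3 kb, H2AZ CST was found in 3 (5.08%, against 7.69%) and H2AZ Abcam in 2 (3.39%, against 7.0%). H3.3 was at the far end of 14 (23.7%, against 19.9%), H4K16ac of 12 (20.3%, against 18.4%) and H3K79me2 of 12 (20.3%, interval 11.0 to 32.8, against 7.91%). Among coding genes in the members' middle length range the far-end share for H3K79me2 was 13.0%, inside that interval. The interval is for the 59 members, which go beyond that range. Of the 32 members inside the range, 8 had H3K79me2 at the far end (25.0%), and no interval was computed for them. The ends with H2A.Z were thus nearly always the starts. Peaks at both ends, over all 75 members, were found in 3 for H2AZ CST (4.0%, against 6.69%) and 4 for H2AZ Abcam (5.33%, against 6.28%). They were found in 16 for H3.3 (21.3%, against 18.3%) and 14 for H4K16ac (18.7%, against 14.9%). For H3K79me2 they were found in 20 (26.7%, against 7.86%, or 10.2% in the middle length range). In short genes a single peak can reach both windows, and at MRPL51 (1377 bp) and MRPS34 (1240 bp), both among the 20, the windows overlap. The middle length range leaves out genes as short as these.

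H2A.Z formed a narrow pair of blocks around the start, and H3K79me2 a broad block after it. From 100 to 200 bp past the start, 90.7% of the members' bases lay inside an H2AZ Abcam peak and 84.4% inside an H2AZ CST peak, against 56.0% and 48.5% over all 15413 genes. Upstream, from 300 to 200 bp before the start, the H2AZ Abcam value was 70.9%, against 45.6%. From 1000 to 1100 bp past the start it was 0% in H2AZ Abcam and 0.299% in H2AZ CST, against 10.9% and 9.07% over all genes, so H2A.Z coverage was higher at the start of members and lower 1 kb inside them. H3.3 and H4K16ac had their highest coverage in the same place as H2A.Z, 57.3% and 53.4% from 100 to 200 bp, against 36.1% and 23.8%. H3K79me2 covered 96.6% of bases from 500 to 600 bp, 90.5% at 1 kb and 63.1% at 2 kb, against 48.3%, 43.1% and 31.5%. It also covered 38.1% of bases from 1000 to 900 bp upstream, against 15.6%. The median distance of the summit nearest the start was 107 bp downstream for H2AZ CST, 102 in H2AZ Abcam, 120 in H3.3, 138 in H4K16ac and 184 in H3K79me2.

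**Figure D3:**
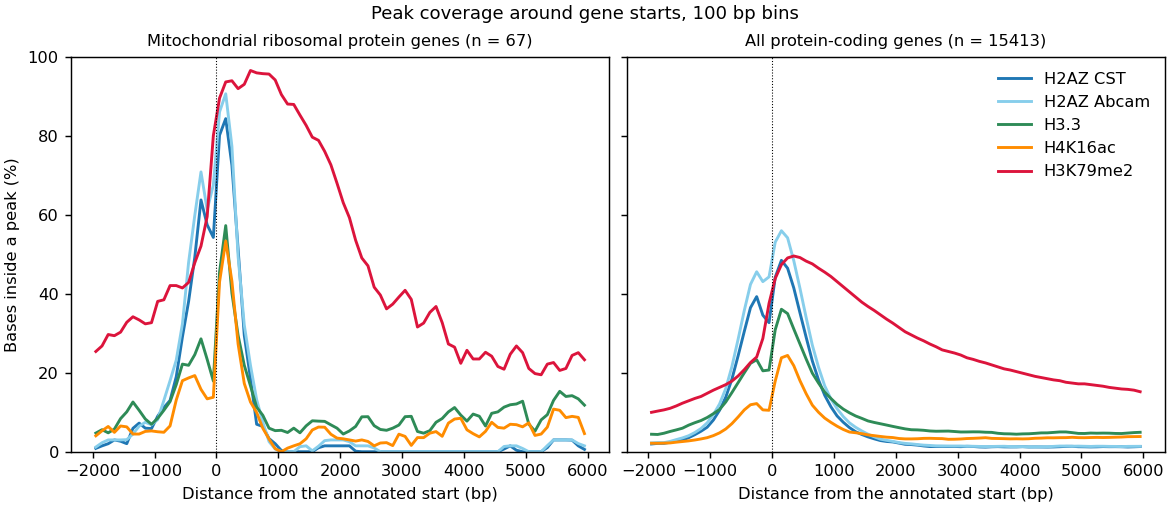
Lines give the percentage of bases inside a peak of each list in 100 bp bins, against distance from the annotated start in bp, for 67 mitochondrial ribosomal protein genes (left) and 15413 protein-coding genes (right). In the members the H2AZ lines have a peak on each side of the start and are near 0 by 1000 bp, whereas the H3K79me2 line stays above 90% from 100 to 1100 bp.

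A coding neighbour that starts within 1 kb and runs the other way was found at 21 of the 67 members (31.3%), against 11.6% of 15412 coding genes. The median distance between such starts was 210 bp. MRPL18 shares its promoter region in this way with TCP1, a chaperonin subunit, at 210 bp, and MRPS12 with SARS2, the mitochondrial seryl-tRNA synthetase, at 181 bp. MRPL46 and MRPS11, both members, start from the same region and share end peaks, and no other members did. Of these 21, 15 carried H3.3 and 13 H4K16ac at the start, beside 36 and 31 of the 46 members without such a neighbour. Between 1000 and 900 bp upstream, H3K79me2 covered 83.4% of bases in the 21 and 17.4% in the 46. The 15.6% of all genes is no like comparison. Only 57.6% of these carried H3K79me2 at the start, against 45 of the 46, and they include genes with a divergent neighbour. From 100 to 200 bp inside the gene H3K79me2 covered 95.0% in the 21 and 93.1% in the 46. For H3K79me2 the members with a divergent neighbour thus differed from the others mainly upstream of the start. H4K16ac differed on the gene's side as well, with 32.6% of bases covered from 100 to 200 bp in the 21 and 62.9% in the 46.

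The share of the gene inside peaks was large for H3K79me2 and small for the other lists. The median over the 75 members was 28.4% in H3K79me2 (quartiles 14.1 and 52.6; 95% interval of the median 21.6 to 39.3), against 1.37% over all coding genes and 2.91% over those in the members' middle length range. In the 37 members inside that length range the H3K79me2 median was 29.6%. For the other lists the medians over the 75 members were 3.32% in H2AZ CST, 3.55% in H2AZ Abcam, 2.44% in H3.3 and 1.43% in H4K16ac. In the 37 they were 3.34%, 3.55%, 2.52% and 1.81% in the same order. Over all coding genes of that range they were 3.34%, 3.79%, 3.53% and 2.72%, so the 37 were at or below genes of that length. H3K79me2 peaks took up at least 50% of the gene in 22 members (29.3%, against 7.46% of all coding genes). Among coding genes in the middle length range, which leaves out the shortest members, the share was 11.1%. H3.3 covered at least 50% of 4 members, MRPL28, MRPL38, MRPS2 and MRPS34, and 3.56% of all genes, H4K16ac covered as much of MRPL28 and MRPS34, and 1.88% of all genes, and neither H2AZ list did so in any member, with 0.350% of all genes for H2AZ CST and 0.586% for H2AZ Abcam.

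In bases, H3K79me2 covered a median of 2653 bp of the 72 members with an end peak and 2655 bp of all coding genes with one. Within the middle length range, members with an end peak had a median of 29.0% of the gene, or 2504 bp, covered, and all coding genes with one 23.4%, or 2237 bp. In 3 groups of 25 members by length, the median share was 55.7% from 1240 to 5414 bp, 29.6% from 5482 to 14362 bp and 10.6% from 15119 to 111543 bp. The H2AZ lists, H3.3 and H4K16ac covered fewer bases inside the gene in members than in all genes with an end peak. The medians were 375 bp against 557 bp in H2AZ CST and 372 bp against 631 bp in H2AZ Abcam. They were 368 bp against 709 bp in H3.3 and 370 bp against 600 bp in H4K16ac. These values leave out the part of a peak that lies outside the gene, and peak widths were not compared.

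**Figure D4:**
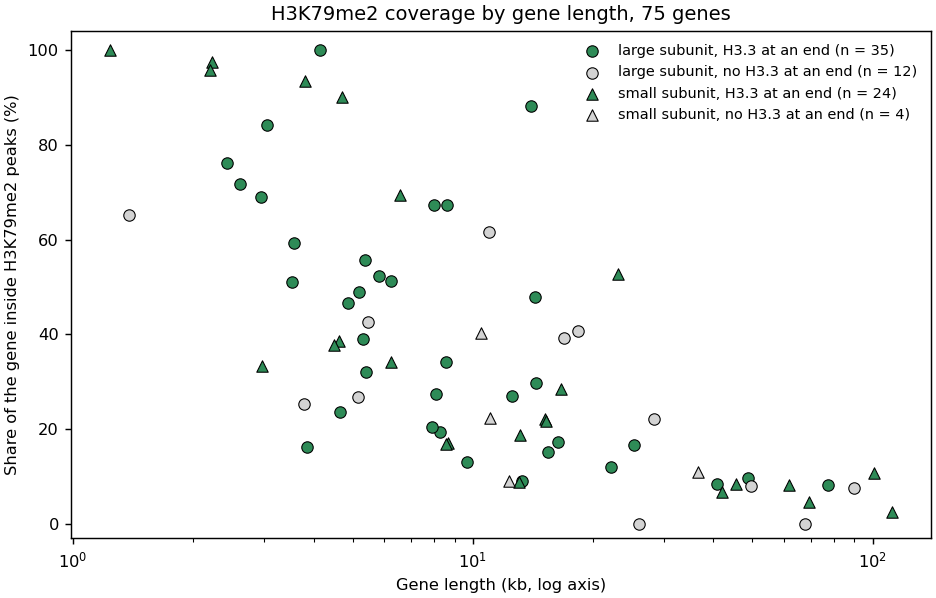
Each point is a member of at least 1 kb, with gene length in kb on a log axis and the percentage of the gene inside H3K79me2 peaks. Circles are large and triangles small subunit genes, green with and grey without H3.3 at an end. Coverage falls with length, from a median of 55.7% in the 25 shortest genes to 10.6% in the 25 longest.

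H3K79me2 covered 100% of MRPL12 and of MRPS34. MRPL12 (chr17:81703367-81707517) encodes the stalk protein that also binds the mitochondrial RNA polymerase, and its −log10 q values were 17.7 in H2AZ CST, 76.1 in H2AZ Abcam, 58.6 in H3.3, 13.5 in H4K16ac and 601 in H3K79me2. The widest H3K79me2 peak touching it was 9190 bp long, and that touching MRPS34 was 11637 bp, so each gene lay inside a single block longer than itself. MRPS12 (97.5%), MRPS26 (95.8%) and MRPS16 (93.5%) followed. The least covered were MRPS31 (6.76%), MRPS6 (4.53%) and MRPS28 (2.39%), genes of 42063 to 111543 bp that carried H3K79me2 at an end, and MRPL23 and MRPL45, at 0%. MRPS25 had 52.8% of 23065 bp covered, an exception to the fall with length.

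The large subunit genes had higher median coverage, 32.0% against 22.2% in H3K79me2, 5.38% against 1.90% in H2AZ CST, 5.04% against 2.53% in H2AZ Abcam, 3.44% against 1.72% in H3.3 and 1.46% against 1.19% in H4K16ac. They were also shorter, with a median length of 8270 bp against 11699 bp. In bases the subunits were close, with medians of 2572 bp and 2756 bp for H3K79me2 and 372 bp and 374 bp for H2AZ CST. The subunits were not compared at matched gene length.

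No H3.3 peak was found at an end of 16 members (21.3%, against 35.5% of all coding genes), 12 of the large and 4 of the small subunit. They had weaker H3K79me2 and H2A.Z peaks than the members with H3.3. H3K79me2 was at an end of 13 of the 16, with a median −log10 q of 62.6 (range 19.2 to 394), and of all 59 others, with a median of 291 (range 5.21 to 769). For H2AZ Abcam the medians were 42.8 over 12 and 121 over 58, and for H2AZ CST 25.7 and 41.5. The ranges overlapped in each case. The same order was found over all coding genes with H3K79me2, where those lacking H3.3 had a median of 66.3 (1100 genes) and those with H3.3 189 (9676 genes). The 16 were longer, with a median of 14602 bp against 8270 bp, and 9 of them had no other gene near an end, against 14 of 59. Of the 16, 12 had no H3.3 peak inside the gene or within 5 kb of it (12 of 75 members, against 26.5% of all coding genes).

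The 4 members that lacked H3.3 alone had H3K79me2 between 192 and 394 and H4K16ac below the members' median. MRPS5, a protein of the messenger entry site (chr2:95085369-95122003), had a −log10 q of 30.6 in H2AZ CST, 140 in H2AZ Abcam, 4.79 in H4K16ac and 394 in H3K79me2, and its nearest H3.3 peak was 7140 bp away. MRPL32, which is cleaved by a mitochondrial protease before it joins the subunit, had 63.0, 73.1, 6.81 and 278, and its nearest H3.3 peak was 43295 bp away. MRPL50 had 39.7, 65.5, 7.49 and 259 with 50626 bp, and MRPL52 had 53.5, 116, 9.51 and 192 with 6907 bp. H3.3 peaks were thus missing from a wide neighbourhood at MRPL32 and MRPL50, while H2A.Z was at or above the members' median for H2AZ CST at 3 of the 4. The MRPS5 and MRPL32 promoters shown above differ in composition, at 75.7% and 58.3% GC, and the former has no match to the 3 cores.

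A further 7 lacked both H3.3 and H4K16ac but carried H2A.Z and H3K79me2. MRPS14 had the strongest H3K79me2 of them (144), with 19.7 in H2AZ CST and 20.1 in H2AZ Abcam. MRPL11, of the stalk base, had 35.0, 67.1 and 65.9 in H2AZ CST, H2AZ Abcam and H3K79me2, and MRPL30 had 20.9, 8.25 and 62.6. MRPL13 had 17.4, 12.1 and 58.5, MRPL22, which lines the exit tunnel, 12.8, 20.0 and 30.0, and MRPL51 17.5, 17.5 and 30.0. MRPS33 stood apart from these, with 55.0 and 86.5 for the H2AZ lists and only 19.2 in H3K79me2. The nearest H3.3 peak lay 2839 bp from MRPL22, 12458 bp from MRPS14, 13377 bp from MRPL11, 20604 bp from MRPL51, 25963 bp from MRPL30, 45182 bp from MRPS33 and 269172 bp from MRPL13.

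The remaining 5 without H3.3 had few or no end peaks of any list. MRPS10 had weak H2AZ CST (3.43) and H3K79me2 (35.7), and H3.3 inside the gene but not near an end. MRPL1, whose protein forms a mobile stalk (chr4:77862830-77952785), had H3K79me2 alone, at 20.7, and its nearest peak of the other lists was 42200 bp away. MRPL45, which lies at the exit tunnel and ties the ribosome to the inner membrane (chr17:38297168-38323211), had only H2AZ Abcam, at 4.66, and no peak inside the gene. MRPL23, another exit tunnel protein (chr11:1947332-2014944), had no peak at an end or inside, and its nearest H3K79me2 peak was 182843 bp away, whereas the nearest peak was 3393 bp away in H4K16ac, 3408 bp in H3.3, 4391 bp in H2AZ CST and 7734 bp in H2AZ Abcam. RefSeq lists 2 pseudogenes named after MRPL45 and 3 named after MRPS10, 0 named after MRPL1, MRPL23 or MRPL44, and 105 named after members in all. Among members with more than 3 such copies, MRPS17 (6 copies) had all 5 lists at an end. MRPS21 (9), MRPL57 (7), MRPL42 (6), MRPS18C (6) and MRPL35 (4) had all but H4K16ac. MRPL50 (4) had all but H3.3, and MRPS33 (4) lacked both H3.3 and H4K16ac. These counts go by name and do not measure how reads match at the starts. A link between copies and missing peaks was not tested.

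At MRPL44, whose protein has an RNase III-like fold, and at MRPL24 the peaks lay mainly at a RefSeq start inside the annotated gene. The annotated MRPL44 gene begins at chr2:223950854, and the RefSeq start shown above lies 6609 bp inside it, where all 5 lists had a peak within 1 kb. Their −log10 q there was 101 in H2AZ CST, 151 in H2AZ Abcam, 5.90 in H3.3, 13.0 in H4K16ac and 475 in H3K79me2, and H3K79me2 covered 39.3% of the gene. MRPL24 carried H3.3 (13.1) and H3K79me2 (5.21) at its annotated ends and all 5 lists at a RefSeq start 1628 bp inside, with 38.7, 44.1, 26.3, 5.80 and 123. Both genes therefore count as lacking H2A.Z and H4K16ac only by the rule on gene ends. The same holds for the lack of H3.3 and H3K79me2 at MRPL44, which is among the 16 members without H3.3.

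No H4K16ac peak was found at an end of 27 members (36.0%, against 45.0% of all coding genes), 17 of the large and 10 of the small subunit. They had weaker peaks in the other 4 lists. The median −log10 q of H3K79me2 was 57.9 over the 24 with a peak (range 5.21 to 437) and 340 over the 48 members with H4K16ac (range 26.3 to 769). For H2AZ Abcam it was 50.5 over 22 and 134 over 48, for H2AZ CST 32.5 and 47.1, and for H3.3 11.7 over 15 and 19.3 over 44. Over all coding genes with H3K79me2 the medians were 94.4 without H4K16ac (2874 genes) and 221 with it (7902 genes). Members without H4K16ac had a median length of 14362 bp, and those with it 7240 bp. Of the 27, 20 had no H4K16ac peak inside the gene or within 5 kb of it (26.7% of 75, against 32.0%).

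By the rule on gene ends, which leaves out the start of MRPL44, only MRPL57 of the 27 had H3K79me2 above the members' median of 240. That gene had 32.4 in H2AZ CST, 60.9 in H2AZ Abcam, 31.9 in H3.3 and 437 in H3K79me2, with 76.1% of it inside H3K79me2 peaks, and its nearest H4K16ac peak was 80616 bp away. MRPS27, a pentatricopeptide repeat protein of the small subunit (chr5:72219403-72320240), had 38.1, 28.9, 11.0 and 174, and H4K16ac inside the gene only. MRPL33 had 63.2, 212, 19.0 and 121, so its H2A.Z peaks were above the members' median in both lists. In H3K79me2, MRPS14 (144) stood between MRPS27 and MRPL33, and below these came MRPL16 (115), MRPS21 (102), MRPL47 (102), MRPS18B (85.3), MRPL11 (65.9) and MRPL30 (62.6). The other 17 were MRPL42, MRPL13, MRPS31, MRPS22, MRPS28, MRPL10, MRPS18C, MRPS10, MRPL35, MRPL22, MRPL51, MRPL1, MRPS33, MRPL24, MRPL23, MRPL44 and MRPL45.

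**Figure D5:**
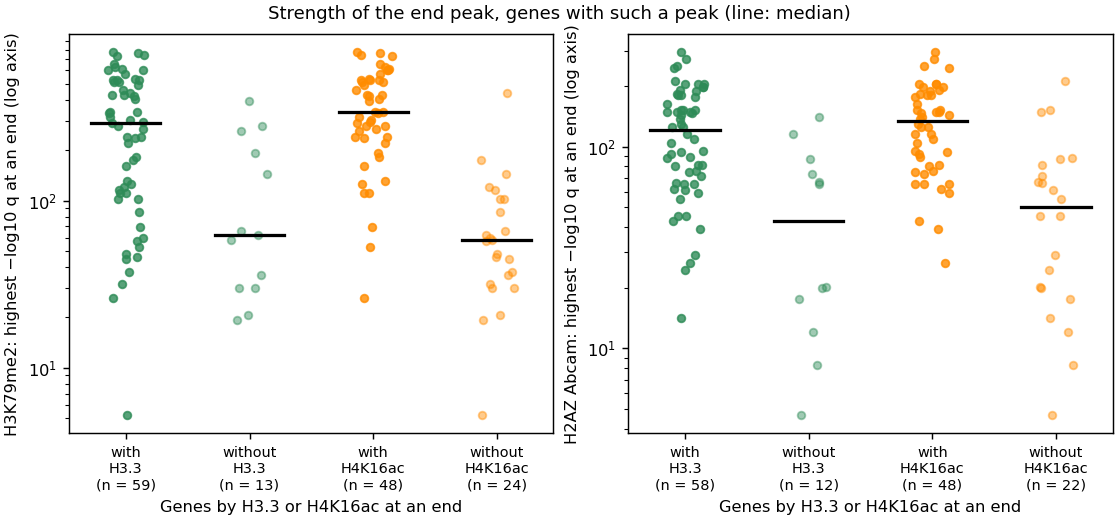
Points are members with an end peak of H3K79me2 (left) or H2AZ Abcam (right), and the log axis gives the highest −log10 q at an end. Members are split by H3.3 (green) or H4K16ac (orange) at an end, and black lines are medians. For H3K79me2 the medians are 291 and 62.6 with and without H3.3, and 340 and 57.9 with and without H4K16ac, and the groups overlap.

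H4K16ac was more frequent the stronger H3K79me2 was, a comparison chosen after the values were seen. Of the 24 members with the weakest H3K79me2 (−log10 q 5.21 to 111), 5 carried H4K16ac (20.8%, interval 7.13 to 42.2), of the middle 24 (115 to 340) 20 did (83.3%, interval 62.6 to 95.3) and of the 24 strongest (394 to 769) 23 did (95.8%). For H3.3 the counts were 16, 20 and 23. Over all coding genes with H3K79me2 in the weakest range, 61.4% of 4111 carried H4K16ac and 83.0% carried H3.3, and among the 970 of these in the members' middle length range 66.7% carried H4K16ac. In the weakest range the members thus had H4K16ac less often than all coding genes, whose share lay above the members' interval. The ranges were cut on the members' own values and strength was not matched within them, so this is a description only. MRPL24 falls in the weakest range by the rule on gene ends, though its start had 123 in H3K79me2 and 5.80 in H4K16ac. In the middle and highest ranges the shares over all genes, 73.1% and 91.0%, lay inside the members' intervals. In the weakest range the median H2AZ Abcam −log10 q was also lower, 71.3 in members against 115 in all genes, and its part in the result was not tested.

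Other genes of mitochondrial translation were taken in lists chosen by function. A set of 6 further genes without an MRP symbol encodes proteins of the mitochondrial ribosome or factors bound to it. Of these, 6 carried each H2AZ list, 5 H3.3, 4 H4K16ac and 6 H3K79me2. PTCD3, of the small subunit, lacked H3.3 and H4K16ac with an H3K79me2 value of 189, and DAP3, a small subunit GTP-binding protein, carried all 5, with 323 in H2AZ Abcam and 672 in H3K79me2. Of 13 translation factors, 13 carried each H2AZ list and H3K79me2, 10 H3.3 and 7 H4K16ac. TUFM, the elongation factor that delivers aminoacyl-tRNA, had 670 in H3K79me2, while TSFM, which recycles it, had 236 and lacked H3.3 and H4K16ac. Of 26 assembly factors, 25 carried each H2AZ list, 22 H3.3, 15 H4K16ac and 26 H3K79me2, so H4K16ac was the least frequent list in all 3 sets. It was also the least frequent over all coding genes, at 55.0%, close to the 53.8% of translation factors and the 57.7% of assembly factors. The median share of the gene covered by H3K79me2 was 66.9% in the 6 further genes, 10.3% in translation factors and 15.6% in assembly factors. In the members it was 28.4%. The median lengths of the 3 sets were 5230, 25047 and 21378 bp.

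The 2 members under 1 kb, where the window around either end spans the whole gene, were left out of the counts. MRPL41, of 677 bp, had a peak of all 5 lists at an end, with a −log10 q of 40.2 in H2AZ CST, 211 in H2AZ Abcam, 71.4 in H3.3, 13.0 in H4K16ac and 118 in H3K79me2, and H3K79me2 covered 100% of it. MRPL53, of 699 bp, had 22.7, 29.4, 66.1 and 45.8 in H2AZ CST, H2AZ Abcam, H3.3 and H3K79me2 and no H4K16ac, its nearest peak of that list being 6634 bp away. Both had H3.3 far above the median of the longer members.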

How the data were processed

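ChIP-seq libraries from HEK293T cells, 1 per antibody, were the source of 5 peak lists. MACS2 2.1.0, Bowtie 1.1.2, Trimmomatic 0.33 and bcl2fastq 2.17 made the lists on build hg38, per the submitters' processing notes. Not given in the sources used here are their settings, the handling of duplicate and multiply matching reads, the use of the input library and the read depth. In the deposited lists stand each peak's position, its summit, and the authors' fold enrichment (a linear ratio), −log10 p-value and −log10 q-value. These are the authors' values. They served to describe peaks of a list and to rank or filter them inside it, and weak peaks depend on depth most. The deposited integer score was not used.

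Peaks were joined to genes of the RefSeq table of GRCh38.p14, the assembly of hg38, which gives gene spans but no exons or untranslated regions. Starts and strands came from the RefSeq promoter table, which held 69 of the 77 members (67 of those of at least 1 kb); the first listed start was used, and MRPL2, MRPL10, MRPL13, MRPL15, MRPL21, MRPL23, MRPL35 and MRPS28 had no entry. The joins and counts were made with Python 3.11.15, numpy 2.4.6, pandas 2.3.3, scipy 1.17.1 and matplotlib 3.10.9 and tested on simulated peaks. A gene carried a list when a peak overlapped a window of 1 kb around either gene end by at least 1 bp.

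Members and lists were chosen with earlier results of these data known. Genes named with values were all members lacking H3.3, the 10 with the strongest H3K79me2 lacking H4K16ac, members without end peaks in at least 3 lists, the strongest 2 per list, the 5 most and 5 least covered by H3K79me2, and the MRPS18 paralogs. Promoters shown were the first 2 by H2AZ CST, by lack of H3.3 and by lack of H4K16ac. MRPL28, MRPL41, MRPL46, MRPL53, MRPS11, and genes of other lists given with values were chosen after their values were seen. Alternatives were windows of 500 bp and 2 kb, summits in place of overlaps, a −log10 q of at least 10, the 10000 strongest peaks of each list, the annotated start alone, members without a near neighbour, gene spans widened by 1 kb, and absence within 5 kb.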

Additional observations from a re-analysis of the deposited data

How the results depend on the processing

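Under the alternatives, 102 recomputed values stayed within counting error or 1.5 times the value given and 23 moved. Windows of 500 bp and 2 kb, summits, starts alone and absence within 5 kb moved none beyond these limits, though the sign of the subunit difference turned for H4K16ac with 2 kb (1.67 points) and, with starts alone, for H4K16ac (4.54) and H2AZ Abcam (1.20). With the 10000 strongest peaks of each list, H2AZ CST was at an end of 45, H2AZ Abcam of 36, H3.3 of 19 and H4K16ac of 10 of 75 members (all coding genes 37.4%, 39.4%, 28.3% and 16.3%). All 5 lists were then at 4 members (5.33%, against 4.95%), 56 lacked H3.3 and 65 lacked H4K16ac. The large minus small difference for H3.3 became 17.6 points, opposite in sign to the value given, and the median covered shares fell to 0.669% in H2AZ CST, 0% in H2AZ Abcam, 0% in H3.3 and 17.1% in H3K79me2. With a −log10 q of at least 10, H4K16ac was at 29 members (all coding genes 29.1%) and all 5 lists at 23 (30.7%, against 19.6%), 30 lacked H3.3 and 46 lacked H4K16ac, and the median share covered by H3.3 was 0.671%. Adding 1 kb at both ends gave 6.60% in H2AZ Abcam. Without other genes near an end, 20, 20, 14, 13 and 20 of 23 members carried H2AZ CST, H2AZ Abcam, H3.3, H4K16ac and H3K79me2. Fewer genes enter, and the shares were also lower, at 87.0%, 87.0%, 60.9%, 56.5% and 87.0%, beside 93.3%, 93.3%, 78.7%, 64.0% and 96.0% of 75. No paired analysis was possible because each antibody had 1 library and no comparison rests on a test. Absence of a peak is absence from a thresholded list of unknown depth. Of the 48 members with H4K16ac, 19 had only peaks with a −log10 q under 10, and of the 59 with H3.3, 14, so which members lack these lists depends on the threshold.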
